A study of Mus musculus with 42 samples.

Results

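Wild-type induced pluripotent stem cells (iPSC) were compared with the GFP+ cells that reprogramming mouse fibroblasts had reached on day 12. The comparison takes 6 of the 42 RNA-seq libraries of the series, chosen by their source labels: 3 of wild-type iPSC clonal lines and 3 of day 12 cells of the set named totalx2, sorted for mCherry and GFP. The day 12 cells came from 3 lines of a cross of B6- Tet1tm1.1Koh mice with the strain B6;129S4-Pou5f1tm2Jae/J, with genotype Tg(mCherry)/wt; Tg(GFP)/wt, so they carried mCherry and GFP reporter alleles, and are labelled as a stage III intermediate. The iPSC came from a cross of B6- Tet1tm1Koh mice with the strain B6;CBA-Tg(Pou5f1-EGFP)2Mnn/J, with genotype wt/wt;GFP/wt, as terminal clonal lines at passages 6 to 7. They had grown on feeder cells in KSR medium and were depleted of feeders before harvest, whereas the day 12 cells were sorted. Both groups were male, and no age is given. The mouse strain, the reporter, the passages, the feeder culture and the sorting step all go with the group, so their parts in any difference below cannot be told apart from that of the stage. The labels used here do not say how the reprogramming factors were delivered, and a count by gene name does not separate an introduced copy from the cell's own.

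Mouse pluripotent cells are held by a network around Oct4 (Pou5f1), Nanog and Sox2, which naive-state factors such as Esrrb and Klf4 join. On the way from fibroblasts, cells switch off mesenchymal genes, gain epithelial junctions and reactivate this network before they become independent of the introduced factors. Established lines divide fast with little p53 pathway and cell-cycle inhibitor expression, and a small share of cells in such cultures passes through a state that resembles the embryo after its first cleavage.

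The 6 libraries held 7018296 to 17963976 counts, from 19115 to 21666 genes. The library of iPSC clone 1 stood apart: 12.18% of its counts fell on mitochondrially encoded genes, against 2.736 to 2.873% in the other 5 libraries. Its scaling factor was 0.7818, against 0.9773 to 1.008 in the others. Markers of pluripotent cells summed to 2649 to 2767 CPM (counts per 1e6 counts of a library's scaled total) on day 12 and to 2332 to 3465 CPM in the iPSC, against at most 2.582 CPM in the fibroblasts of the series. The 9 fibroblast or feeder markers summed to 1858 to 2277 CPM on day 12 and to 1142 to 1477 CPM in the iPSC, against 15240 to 16460 CPM in the fibroblasts, so both groups held RNA of such genes. In bulk samples fewer cells of a type and less RNA per cell cannot be told apart. Endothelial, trophectoderm and primitive endoderm markers each summed to at most 8.271 CPM in every library. Of the 4 leukocyte markers, Ptprc, Csf1r and Tyrobp were at 4.543 CPM or less in each library and Laptm5, at 109.7 to 196.9 CPM, made up nearly all of their sum.

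Of 15197 genes tested, 3804 were higher (25%) and 3957 lower (26%) in the iPSC, 51.1% in all (edgeR quasi-likelihood test, Benjamini-Hochberg adjusted p under 0.05). At a change of at least 1 log2 unit 1393 genes (9.17%) were higher and 1718 (11.3%) lower, and the median log2 change over all genes was -0.01. The labels do not say that the clones came from separate animals, so p-values measure the spread between these libraries. These shares are the background for each gene list below. Non-overlap of the groups' libraries was common over all genes tested, in 3921 higher (25.8%) and 4347 lower (28.6%) in the iPSC. Without iPSC clone 1 the test called 3825 genes higher and 3981 lower, and 6671 of the 7761 calls were kept, all with the same sign.

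**Figure D1:**
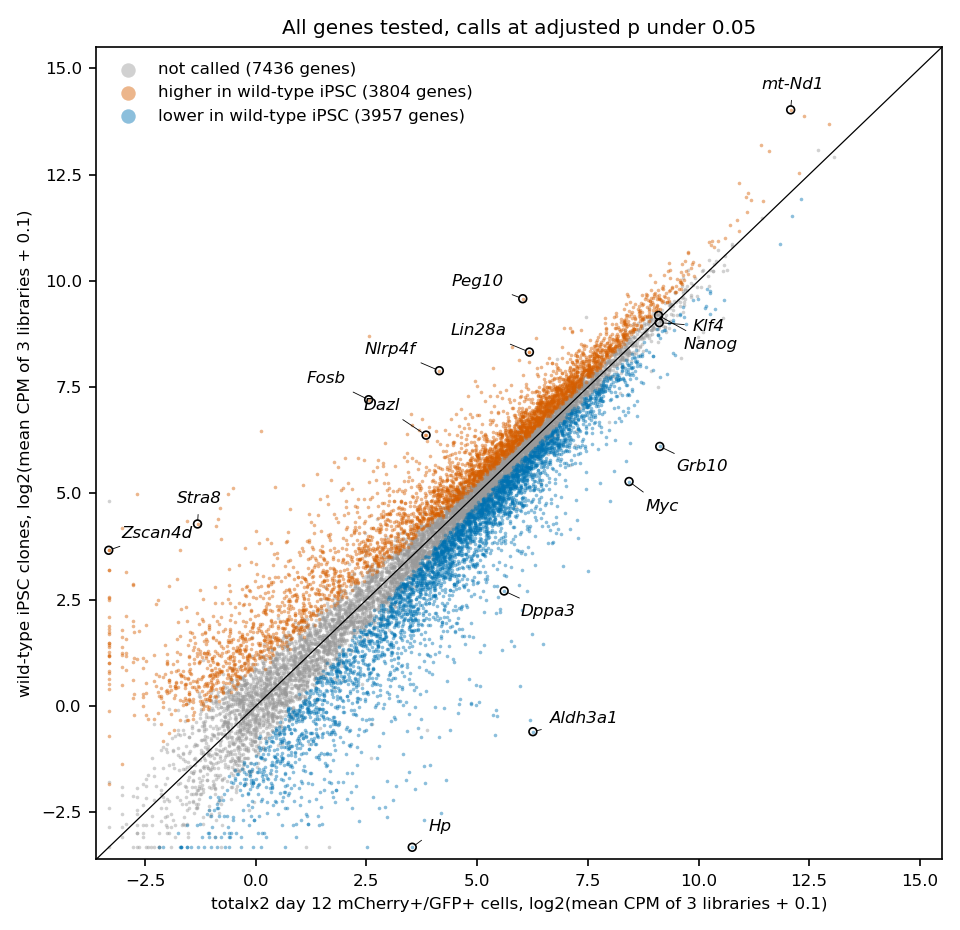
Mean level of each tested gene in the day 12 GFP+ cells (x axis) and in the wild-type iPSC (y axis), as log2(mean CPM of 3 libraries + 0.1), with the diagonal marking equal levels. Genes called higher in the iPSC (orange, 3804) and lower (blue, 3957) spread on both sides of it, while Nanog and Klf4 lie close to it.

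Among the fixed pluripotency genes, no difference between the groups was called for Nanog, Esrrb, Klf4 and Zfp42. Pou5f1, Sall4, Lin28a, Dppa3 and Dppa4 were called, with the values given below. Nanog held 573, 531 and 537 CPM in the 3 day 12 lines and 543, 551 and 653 CPM in iPSC clones 1, 2 and 3. The groups overlapped, with a log2 change of 0.09 ± 0.14 (SE) and an adjusted p of 0.62. Esrrb, Klf4, Zfp42 (Rex1) and Cdh1 were not called either, at log2 changes of 0.05 ± 0.21, -0.10 ± 0.13, 0.26 ± 0.16 and -0.04 ± 0.12. Without clone 1 Zfp42 was called, at 0.37 ± 0.15. A missed threshold does not show that these levels were equal. Pou5f1 held 542, 564 and 573 CPM on day 12 and 493, 956 and 833 CPM in the iPSC. Clone 1 was below all day 12 lines and the other 2 clones above them, and the call at 0.44 ± 0.16 (adjusted p = 0.0302) was lost under 8 of 14 alternatives, among them leaving out clone 2, clone 3 or any day 12 line. Without clone 1 the change was 0.69 ± 0.11 (adjusted p = 5.63e-05). Sox2, whose whole span lies within Sox2ot on the same strand, had 0 counts in these libraries and was not tested.

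Of a shared pluripotency list, 13 of 23 tested members were higher and 1 was lower, with a median log2 change of 0.58. Lin28a, which encodes an RNA-binding protein that blocks let-7 maturation, held 60.4, 81.2 and 75.6 CPM on day 12 and 271, 348 and 342 CPM in the iPSC (log2 change 2.15 ± 0.15, adjusted p = 1.59e-09). All 3 clones stood above all 3 lines. Dppa2, a chromatin factor, rose from 33.7 ± 4.46 (SD, n = 3) to 168 ± 113 CPM, with clone 1 at 298 CPM and the others at 98.9 and 107 CPM, and its log2 change of 2.31 ± 0.32 was 1.62 ± 0.16 without clone 1. Its partner Dppa4 rose by 1.06 ± 0.18 log2 units, Sall4 by 0.64 ± 0.14 and Jarid2, a Polycomb cofactor, by 0.78 ± 0.10. Zfp296 alone fell, from 53.8, 61.3 and 60 CPM to 22.9, 23.7 and 24.9 CPM (log2 change -1.29 ± 0.16).

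Naive-state genes split. Of 26 tested, 11 were higher and 5 lower, with a median of 0.29. Nlrp4f, an oocyte-type NLR family gene, held 10.6, 24.4 and 17.7 CPM on day 12 and 261, 228 and 222 CPM in the iPSC, 3.77 ± 0.22 log2 units apart (adjusted p = 5.43e-10). Klf5 rose from 67.7, 78.4 and 94.9 CPM to 720, 241 and 242 CPM, so clone 1 was far above the other clones and its log2 change of 2.31 ± 0.30 was 1.60 ± 0.12 without it. Dppa3 (Stella), which shields the early embryo's methylome, went the other way: 60.5, 43.3 and 42.3 CPM on day 12 against 8.14, 6.52 and 4.62 CPM in the iPSC. No library overlapped, and the log2 change was -2.96 ± 0.26 (adjusted p = 3.91e-08). Prdm14, Tcl1, Fgfr1 and Trpm1 were also called lower. Without clone 1 the list had 13 members higher and 3 lower, and Prdm14 and Tcl1 had lost their calls.

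Of 20 formative and primed genes 6 were higher and 4 lower, close to the background. Tcf15 rose by 1.79 ± 0.20 and Etv4, an ETS factor downstream of FGF signalling, by 2.53 ± 0.35 log2 units. Lefty2, a Nodal inhibitor, fell from 34.9 ± 7.47 to 11.8 ± 3.80 CPM, a log2 change of -1.59 ± 0.26.

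**Figure D2:**
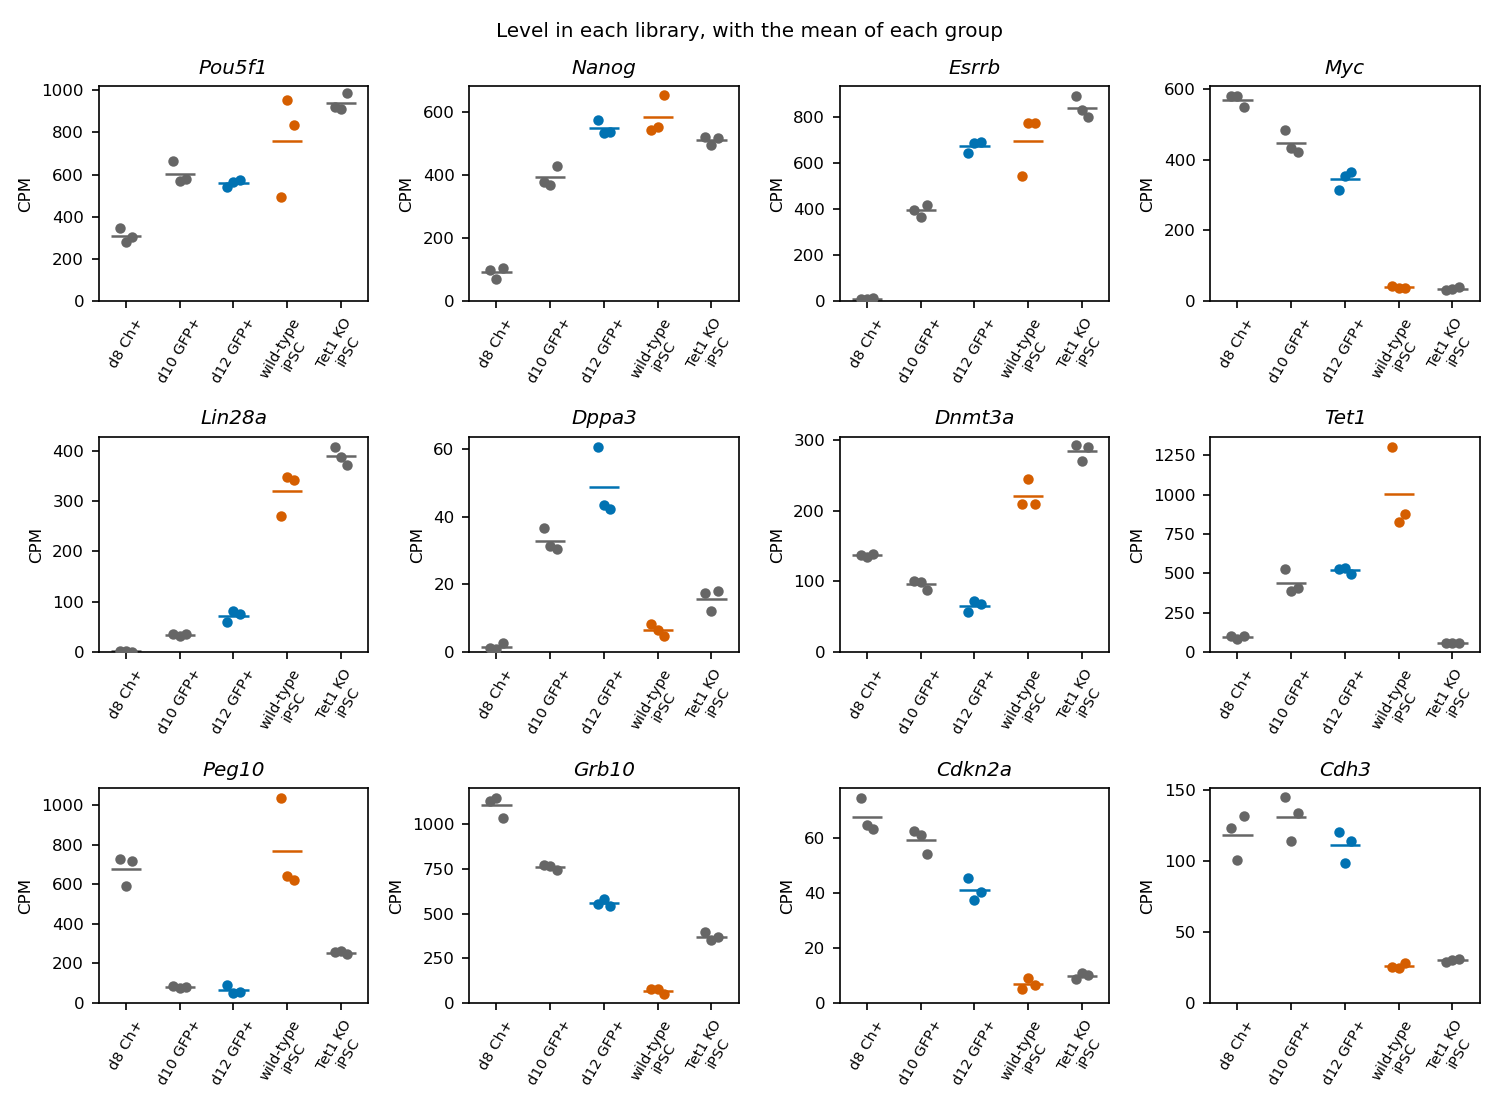
CPM of 12 genes in each library (points) with the group mean (line) in totalx2 mCherry+ cells of day 8 (d8 Ch+), totalx2 GFP+ cells of days 10 and 12, wild-type iPSC and Tet1 knockout (KO) iPSC. Nanog averages 547 CPM on day 12 and 582 CPM in the wild-type iPSC, Myc is near 39 CPM in the wild-type iPSC against 345 CPM on day 12, and Grb10 is lower in the wild-type clones than in any other group drawn.

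Myc was much lower in the iPSC, with the smallest p of all genes but the pseudogene name Rps24-ps3. The gene, at chr15:61985341-61990374 on the plus strand (mm10), encodes the growth-promoting transcription factor that is also one of the classical reprogramming factors. It held 315, 354 and 366 CPM in the day 12 lines and 41.2, 38.0 and 37.0 CPM in the iPSC, a log2 change of -3.16 ± 0.10 (adjusted p = 3.16e-14). In the totalx2 set it was at 571 ± 17.7 CPM on day 8 and 447 ± 33.0 CPM in day 10 GFP+ cells, and the Tet1 knockout iPSC held 34.7 ± 3.45 CPM. Mycl and the MAX partners Mxd4 and Mxi1 fell too, at -1.61 ± 0.16, -1.40 ± 0.24 and -0.61 ± 0.10, while Mycn was not called (0.15, adjusted p = 0.472) unless clone 1 was left out (0.37, adjusted p = 0.0436). Odc1, a polyamine synthesis gene known as a MYC target, was higher in the iPSC by 1.24 ± 0.11, and nucleolin (Ncl) by 0.96 ± 0.20. Of the 20 genes of the MYC and LIN28 list 7 were higher and 5 lower.

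The DNA methylation machinery changed member by member, with 8 of 19 genes higher and 7 lower, the latter 4 without day 12 line 1. Dnmt3a, a de novo DNA methyltransferase, held 56.5, 71.5 and 67.7 CPM on day 12 and 209, 245 and 209 CPM in the iPSC (log2 change 1.76 ± 0.10, adjusted p = 8.76e-11), with no overlap. Dnmt3b rose by 0.65 ± 0.14, their cofactor Dnmt3l by 1.18 ± 0.18 and Uhrf1, which guides maintenance methylation, by 0.53 ± 0.11. Dnmt1 was not called (0.19, adjusted p = 0.0794), but was at 0.26 without clone 2 (adjusted p = 0.0306) or clone 3 (adjusted p = 0.0344). Among the TET dioxygenases, which oxidise 5-methylcytosine, Tet1 held 524, 530 and 498 CPM on day 12 and 1303, 823 and 874 CPM in the iPSC (log2 change 0.95 ± 0.16). The strain names of the groups hold different Tet1 alleles, and the part of the allele in the Tet1 levels was not tested. Tet3 fell by 0.56 ± 0.12 log2 units. Tet2 held 325, 318 and 334 CPM on day 12 and 522, 243 and 274 CPM in the iPSC, with clone 1 above all lines and the other clones below them, and was not called (0.09 ± 0.19). Without clone 1 its direction turned and it was called lower, at -0.32 ± 0.10 (adjusted p = 0.0121). Apobec1 and the methyl-CpG binding gene Zbtb4 fell by 1.79 ± 0.11 and 1.90 ± 0.23.

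Polycomb genes, which keep developmental genes silent, were higher for 13 of 29 members and lower for 4, with a median of 0.13. Without clone 1, 10 were higher and 5 lower, at a median of -0.01. With only the 6 libraries of the contrast fitted, which called fewer genes of all kinds, 7 members were higher. Kdm2b rose by 0.83 ± 0.11, and Rybp rose by 1.18 ± 0.18 and Rnf2 by 0.92 ± 0.14, both with clone 1 highest. Ezh1 and Phc2 were lower, at -0.91 ± 0.11 and -1.11 ± 0.10 log2 units. Hox and segmental genes moved down, 10 of 19 against 3 up, at low levels, with 6 lower without clone 3 or without day 12 line 1 and 7 without clone 1: Hoxa9 held 3.66, 2.27 and 2.60 CPM on day 12 and 0.133, 0.407 and 0.342 CPM in the iPSC. Tbx15 and Meis1, developmental transcription factors, fell by 2.34 ± 0.26 and 2.29 ± 0.24.

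Many genes of the germ line were higher in the iPSC: 28 of 42 tested members (66.7%, background 25%) were higher and 3 lower, with a median of 1.28. The products of these genes act in meiosis and in silencing transposons, and their promoters are known to be held shut by DNA methylation and by repressors that bind the E-box CACGTG. The 250 bases before the start sites in the RefSeq promoter table (GRCm38.p6) were searched for CACGTG, which reads the same on both strands, and 41 of the 49 listed genes matched a symbol there. It stood in 13 of 28 windows of the members called higher (46.4%, 24 of 28 genes matched), in 3 of 13 windows of the other tested members (23.1%) and in 1978 of 32851 windows of all genes (6.02%). A gene can have more than 1 window, so windows are not independent. By gene it stood in 11 of the 24 matched members called higher, 2 of 10 other tested members and 1854 of 27025 genes. The match is a description of these letters, not of a bound factor. The promoters of 6 of these genes, each the 120 bases before the start site with the E-box in capitals, are printed to show how the word sits at different distances from the start.

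Ddx4, chr13:112652311-112652430, minus strand: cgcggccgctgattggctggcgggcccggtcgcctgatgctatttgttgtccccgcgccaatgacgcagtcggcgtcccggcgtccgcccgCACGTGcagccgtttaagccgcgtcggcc
Sycp1, chr3:102936101-102936220, minus strand: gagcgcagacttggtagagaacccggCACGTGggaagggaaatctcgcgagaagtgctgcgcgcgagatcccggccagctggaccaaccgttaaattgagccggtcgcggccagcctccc
Sycp3, chr10:88459467-88459586, plus strand: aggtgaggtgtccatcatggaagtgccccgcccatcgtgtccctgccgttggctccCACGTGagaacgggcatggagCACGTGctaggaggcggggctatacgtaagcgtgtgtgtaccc
Hormad1, chr3:95559557-95559676, plus strand: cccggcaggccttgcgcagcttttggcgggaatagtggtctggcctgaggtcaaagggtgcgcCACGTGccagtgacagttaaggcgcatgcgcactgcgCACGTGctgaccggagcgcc
Slc25a31, chr3:40708751-40708870, plus strand: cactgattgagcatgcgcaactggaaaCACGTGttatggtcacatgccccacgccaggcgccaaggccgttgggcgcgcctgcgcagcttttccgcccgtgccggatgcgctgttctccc
Taf7l, chrX:134476491-134476610, minus strand: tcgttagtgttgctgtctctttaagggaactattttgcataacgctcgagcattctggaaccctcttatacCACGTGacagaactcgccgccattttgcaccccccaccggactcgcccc

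Of these, Ddx4 (Vasa), an RNA helicase of germ cells, held 3.39, 3.55 and 5.55 CPM on day 12 and 46.4, 30.6 and 35.8 CPM in the iPSC (log2 change 3.14 ± 0.25, adjusted p = 1.09e-08). The synaptonemal complex gene Sycp1 rose from 3.21, 2.70 and 3.46 CPM to 75.2, 18.6 and 24.5 CPM. The meiotic axis gene Hormad1 rose from 5.86, 7.38 and 8.44 CPM to 79.6, 35.7 and 34.6 CPM. In both, every clone stood above every line and clone 1 was the highest. Sycp3 rose by 1.48 ± 0.26, Taf7l by 3.05 ± 0.41 and the ADP/ATP carrier Slc25a31 by 3.70 ± 0.39 log2 units. Dazl, whose product binds RNA in germ cells, held 13.4, 14.9 and 14.6 CPM on day 12 and 112, 43.4 and 92.2 CPM in the iPSC (log2 change 2.53 ± 0.28). Stra8, the retinoic acid-induced gate to meiosis at chr6:34920163-34939344, is outside the list and was among the 12 largest rises: 0.183, 0 and 0.721 CPM against 23.3, 14.9 and 19.8 CPM (5.68 ± 0.48). Tex13, Tdrd5 and Rec8 fell, at -1.41 ± 0.33, -1.34 ± 0.34 and -0.93 ± 0.23.

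Genes of the 2-cell-like state, which are transcribed when the embryonic genome first becomes active, were at or near 0 on day 12 and detected in every iPSC clone. Of 20 members with a row of counts, 9 were too low to test. The other 11 were called higher, but a gene at 0 on day 12 can pass the filter on low counts only through other groups, so that count is a description. Zscan4d, a member of a telomere-associated zinc finger cluster on chromosome 7, had 0 counts in all 3 day 12 lines and 18.3, 8.88 and 10.6 CPM in the iPSC. Against a floor of 3 counts per library this is at least 41.1-fold higher. Zscan4c, likewise at 0 on day 12, held 19.7, 3.42 and 4.11 CPM, with clone 1 well above the others. The list summed to 0.144 to 0.549 CPM on day 12, to 36.4 and 45.1 CPM in clones 2 and 3 and to 126.5 CPM in clone 1, which also had the mitochondrial excess. The median log2 change of the 11 was 4.25 with genes at 0 set to their bound. Members of the Zscan4 and Usp17l clusters are near-identical copies, so how reads were split among them is uncertain, and the Tet1 knockout iPSC held 1.87, 2.19 and 3.73 CPM of Zscan4d.

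**Figure D3:**
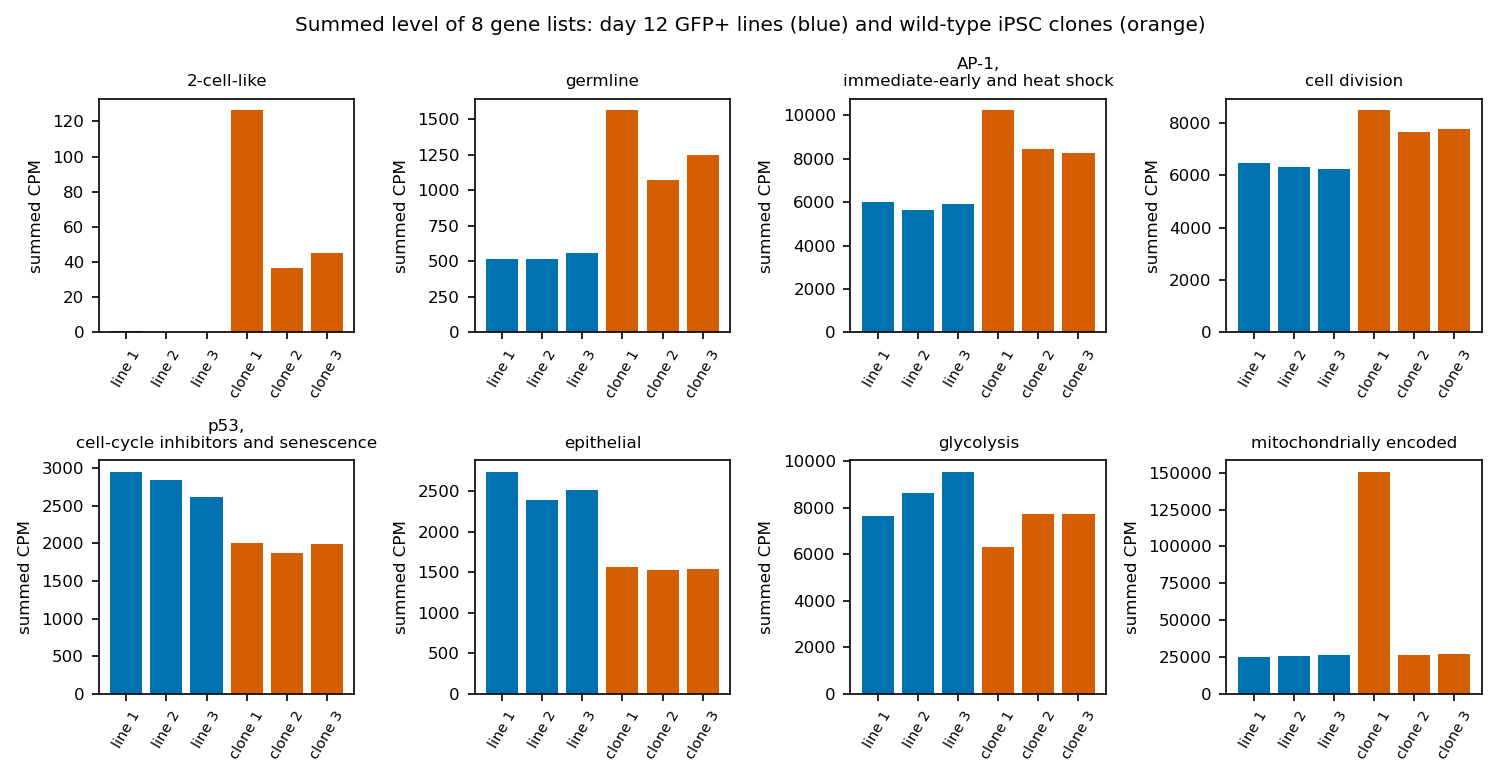
Summed CPM of 8 gene lists in each of the 3 day 12 GFP+ lines (blue) and the 3 wild-type iPSC clones (orange), each panel with its own axis from 0. Clone 1 is the highest clone for every list drawn but glycolysis, where it is the lowest. The epithelial sums of the clones lie close together, at 1532 to 1565 CPM.

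AP-1 and other immediate-early genes, which answer growth factors and stress within minutes, were higher together with heat shock genes: 19 of 23 tested members (82.6%) rose and none was called lower, with a median of 1.13. Fosb, at chr7:19302696-19310051 on the minus strand, held 3.85, 4.54 and 8.87 CPM on day 12 and 123, 171 and 147 CPM in the iPSC (log2 change 4.62 ± 0.53, adjusted p = 1.74e-06). Fos rose from 22.5, 27 and 43.0 CPM to 145, 230 and 227 CPM (2.70 ± 0.29), and no library overlapped. Dusp1, a phosphatase that ends MAP kinase signalling, rose by 2.50 ± 0.29, Atf3 by 3.41 ± 0.46 and Jun by 1.71 ± 0.30. Among chaperones Hsph1 rose by 0.85 ± 0.09 and Hspa8 by 0.56 ± 0.12, while Dnajb1 was not called (0.25, adjusted p = 0.0995) unless clone 1 was left out (0.45, adjusted p = 0.000146). Sorting was done in the day 12 group alone, and its part in these levels cannot be told apart from the stage. The fibroblasts of the series, in another batch, held 98.5 ± 14.9 CPM of Fosb.

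FGF and ERK genes were higher in 13 of 22 and lower in 2, with a median of 0.55. The ligand Fgf17 rose from 1.5 ± 0.555 to 14.3 ± 3.54 CPM (3.24 ± 0.37), but Fgf4, the main FGF of pluripotent cells, was not called (-0.22, adjusted p = 0.336). The receptor Fgfr1 fell by 0.66 ± 0.09 log2 units and Fgfr2 rose by 0.52 ± 0.17, a call lost without clone 1 (0.20, adjusted p = 0.128). The feedback genes Dusp6, Spry4 and Spry2 rose by 1.01 ± 0.14, 0.95 ± 0.20 and 0.59 ± 0.10. Of 27 TGF-beta and activin genes 12 were higher and 7 lower. The ligand gene Inhbb rose by 1.56 ± 0.22, and the receptor Acvr1b fell by 0.80 ± 0.11. BMP genes were higher in 7 of 22 and lower in 2, with Id1 up by 1.57 ± 0.24 and the phosphatase gene Dusp9 by 1.79 ± 0.20. WNT genes were close to the background, 7 higher and 6 lower of 27: Axin2, a common feedback target, rose by 1.48 ± 0.28 and Lgr5 fell by 4.47 ± 0.81 from a low level. LIF and STAT3 genes were called higher in 3 and lower in 4 of 18, Myc included, and 7 and 4 without clone 1.

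Of 23 cell division genes 14 rose and 1 fell, with a median of 0.38, and the genes that rose include those of all 6 listed subunits of the replicative helicase. The replicative helicase gene Mcm4 held 287, 270 and 283 CPM on day 12 and 575, 461 and 486 CPM in the iPSC (0.86 ± 0.09), and Pcna, Cdc6, Ccne1 and Ccne2 rose by 0.84 ± 0.07, 1.10 ± 0.10, 0.91 ± 0.09 and 2.30 ± 0.22. Of the mitotic genes, Cdk1, Plk1, Ccnb1, Mki67 and Top2a were not called, at -0.04 to 0.10 log2 units, and Aurkb fell by 0.71 ± 0.12. Other members that rose are not named here, so these genes do not stand for all mitotic members of the list. Without clone 1 Mki67 was called lower, at -0.36 ± 0.10. Genes of the p53 pathway and cell-cycle inhibitors fell in 16 of 22 (72.7%, background 26%) and none was called higher, with a median of -0.86. Cdkn2a (Ink4a/Arf), a barrier to reprogramming, held 45.7, 37.6 and 40.5 CPM on day 12 and 5.2, 9.12 and 6.45 CPM in the iPSC (log2 change -2.56 ± 0.16, adjusted p = 2.88e-10). Cdkn1a (p21) fell from 118 ± 4.17 to 56.4 ± 2.82 CPM, with no overlap, and the p53 targets Aen, Zmat3, Phlda3 and Bbc3 by 1.28 ± 0.11, 1.07 ± 0.09, 1.5 ± 0.23 and 1.12 ± 0.16. Trp53 and Mdm2 were not called (0.08 and 0.01), but without clone 1 Trp53 was called higher (0.21, adjusted p = 0.00958) and Mdm2 lower (-0.24, adjusted p = 0.0489).

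Epithelial genes were lower in 24 of 30 tested members (80%) and higher in 1, with a median of -1.28. E-cadherin (Cdh1) was the exception already given. P-cadherin (Cdh3) held 120, 98.9 and 114 CPM on day 12 and 25.6, 24.4 and 27.9 CPM in the iPSC (-2.10 ± 0.14, adjusted p = 5.43e-10), with no overlap. The splicing regulator Esrp1 fell by 2.51 ± 0.20, Epcam by 1.09 ± 0.17, the simple keratin gene Krt19 by 2.72 ± 0.25, Rab25 by 2.81 ± 0.32 and Perp, also a p53 target, by 1.81 ± 0.14. Trophectoderm and placenta genes were lower in 11 of 18 and higher in 4. Tfap2a, Rhox6 and Rhox9 fell by 1.55 ± 0.18, 2.96 ± 0.36 and 2.34 ± 0.29. Peg10, a member of this list and of the imprinted list below, rose by 3.55 ± 0.22, to 619 to 1036 CPM in the iPSC. With it, the summed level of the list was higher in the iPSC, at 1031 to 1577 CPM against 532.2 to 658 CPM on day 12. Endoderm genes were lower in 6 of 15, with the basement membrane genes Lama1, Col4a1 and Col4a2 at -2.27 ± 0.15, -1.54 ± 0.21 and -1.76 ± 0.20, while the transcription factors Gata4 and Gata6 were not called. Gata6 was at 1.04 (adjusted p = 0.0552) and was called higher without clone 2, at 1.28 (adjusted p = 0.0316). With all libraries the 1 member called higher was Sox7, an endoderm transcription factor (1.71 ± 0.55, adjusted p = 0.0137). Sox7 held 0.549, 0.426 and 1.51 CPM on day 12 and 2.93, 2.61 and 3.31 CPM in the iPSC. Its call was lost without day 12 line 1 or line 2. The 4 primitive endoderm markers, Sox7 among them, summed to 3.265 to 4.04 CPM on day 12 and to 6.192 to 8.271 CPM in the iPSC, and their part in these changes was not tested. Of 32 fibroblast genes 8 were lower, 5 higher and 19 not called. Tgfbi fell by 2.66 ± 0.38, Fbn1 by 1.57 ± 0.27 and Fn1 by 0.98 ± 0.11, Col1a1 was not called (-0.22 ± 0.33), and Postn rose by 1.36 ± 0.37. Without clone 1, 5 were lower and 4 higher.

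**Figure D4:**
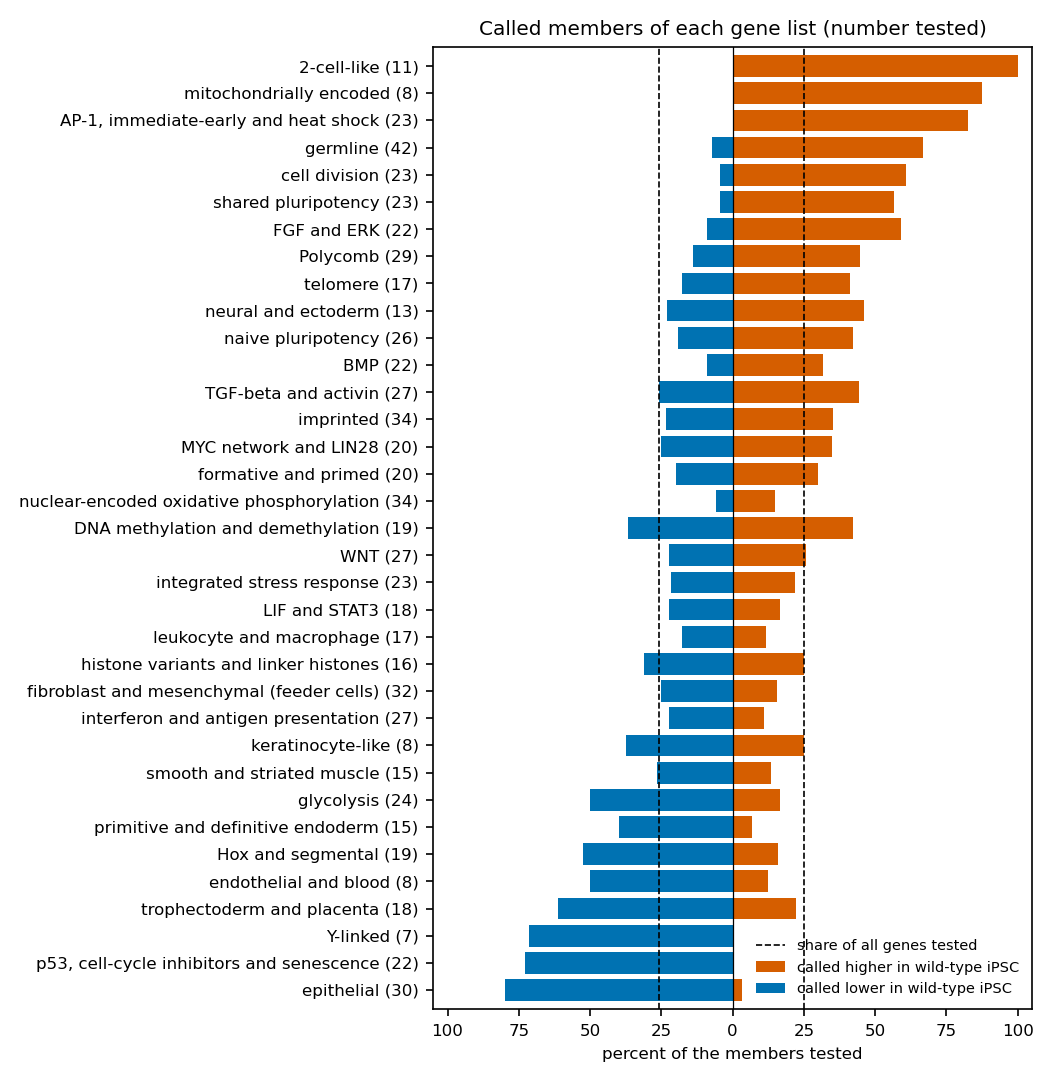
Share of the tested members of each gene list called higher (orange, to the right) or lower (blue, to the left) in wild-type iPSC, with the number tested in brackets and dashed lines at the shares over all genes (25% and 26%). The epithelial list has 80% of its members lower and the p53 list 72.7%.

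Glycolysis genes were lower in 12 of 24 and higher in 4, with a median of -0.32. Without clone 1, 10 were lower and 5 higher, at a median of -0.17, and without clone 3, day 12 line 1 or day 12 line 2 only 2 were higher. Pfkp, a phosphofructokinase subunit, fell by 1.80 ± 0.17, Pfkl by 1.34 ± 0.17 and the lactate dehydrogenase gene Ldha by 1.06 ± 0.15, from 391, 511 and 601 CPM to 201, 270 and 249 CPM, while Hk2 rose by 0.41 ± 0.10. Nuclear genes of oxidative phosphorylation changed little: 5 of 34 were higher and 2 lower, with a median of 0.03. Without clone 1, 12 were higher and 1 lower, at a median of 0.13. The mitochondrially encoded genes were called higher in 7 of 8, but this rested on clone 1. mt-Nd1 held 4011, 4435 and 4557 CPM on day 12, 5915 and 5997 CPM in clones 2 and 3 and 38010 CPM in clone 1. Without clone 1 it was the single call left, at 0.47 ± 0.09, and the list's median went from 1.42 to 0.03. Eno1b, an enolase gene copy, was among the 12 largest rises. On totals scaled over all 42 libraries it was at 0.302 to 1.35 CPM in all 15 totalx2 libraries of every day and gate, at 44.5 to 95.8 CPM in the 6 wild-type and knockout iPSC libraries and at 40.1 to 123 CPM in the naivex2 libraries.

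Imprinted genes, expressed from 1 parental allele, moved in both directions, 12 of 34 higher and 8 lower, with a median of -0.06. Without clone 1, 10 were higher and 11 lower, at a median of -0.12. Grb10, a growth restrictor at chr11:11930508-12038683, held 552, 581 and 541 CPM on day 12 and 78.0, 78.0 and 50.2 CPM in the iPSC (log2 change -3.03 ± 0.12, adjusted p = 1.11e-12). In the Tet1 knockout iPSC it was at 371 ± 21.8 CPM and in the naivex2 iPSC at 483 ± 119 CPM, both above every wild-type clone. Peg10, a retrotransposon-derived placental gene at chr6:4747306-4760517, rose from 89.5, 49.4 and 56.9 CPM to 1036, 641 and 619 CPM (3.55 ± 0.22), and the knockout iPSC held 254 ± 7.58 CPM. Mest rose by 1.99 ± 0.17, Zdbf2 by 2.19 ± 0.32 and Dio3 by 3.34 ± 0.53, and H19 and Cdkn1c fell by 1.06 ± 0.31 and 2.40 ± 0.41. Igf2, Meg3 and Peg3 were not called. Y-linked genes were lower in 5 of 7, with Usp9y at 11, 9.94 and 9.02 CPM on day 12 and 0.934, 0.326 and 1.48 CPM in the iPSC (-3.37 ± 0.38). Without clone 2, 3 of the 7 were lower, and without clone 1, 5 were lower and 1 higher.

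Among the largest falls was haptoglobin (Hp), an acute-phase gene, at 9.89, 12.1 and 12.5 CPM on day 12 and at 0 counts in all 3 clones, at least 42.2-fold lower. The aldehyde dehydrogenase gene Aldh3a1, at chr11:61207537-61218421, held 67.5, 86.3 and 75.7 CPM on day 12 and 0.534, 0.570 and 0.570 CPM in the iPSC (-7.06 ± 0.36, adjusted p = 4.08e-11). It was at 146 ± 20.7 CPM in the day 8 totalx2 cells. Rapgef4 (Epac2), a cyclic AMP sensor, fell from 41.0, 43.0 and 42.7 CPM to 0.400, 0.896 and 0.285 CPM (-6.33 ± 0.23). Il1rn, the interleukin 1 receptor antagonist gene, fell by 5.59 ± 0.50. Non-overlap of the groups' libraries was a condition for naming these genes among the largest falls, so it adds no support. The lectin genes Clec2g and Clec2i were lower too, at -7.24 ± 0.41 and -5.67 ± 0.31. Of the 12 largest rises 10, and of the 12 largest falls 10, also had naivex2 iPSC and naivex2 day 12 GFP+ libraries apart in the same direction. Over all genes called higher that held for 65.9% and over all called lower for 65.4%, against 29% and 30.3% of all genes tested, so with 12 genes a side these counts are not a result about the largest changes. The exceptions were Eno1b, Capn11, Cyp2f2 and Serpina3n. Capn11, a testis calpain gene, rose here (14.9, 18.2 and 12.2 against 0.366, 0.426 and 0.649 CPM). On totals scaled over all 42 libraries, in naivex2 it was at 31.8 to 35.9 CPM on day 12 and 4.64 to 15.4 CPM in iPSC. On the same scale the Tet1 knockout iPSC held 0.769 to 1.58 CPM.

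The same step was set against that of the naivex2 set, which carries transgenic Tet1-mCherry and Pou5f1-EGFP reporters and was sequenced in another batch. The difference of the 2 log2 changes, from a fit of all 42 libraries, was called in 3507 of 16652 genes (21.1%), 1602 more positive for the wild-type against totalx2 step (9.62%) and 1905 more negative (11.4%). Of the 21 fixed genes with a value, 7 were called. Myc fell by 3.15 ± 0.17 here and by 3.45 ± 0.18 in naivex2, and the difference was not called (0.30 ± 0.23, adjusted p = 0.377). Dppa3 likewise fell by 2.96 ± 0.22 and 3.12 ± 0.22 (adjusted p = 0.76). Dnmt3l rose by 1.2 ± 0.20 here against 2.44 ± 0.21 there and Lin28a by 2.16 ± 0.15 against 2.97 ± 0.15, and both differences were called (adjusted p = 0.00226 and 0.00479). Tet3 went down by 0.55 ± 0.13 here and up by 0.64 ± 0.12 there (adjusted p = 1.05e-05). The fibroblast genes Thy1 and Col1a1 were at -0.23 ± 0.33 and -0.21 ± 0.36 here but at 1.95 ± 0.36 and 1.32 ± 0.36 in naivex2, where the fibroblast marker sums were 462.2 to 953.7 CPM on day 12 and 851 to 2614 CPM in iPSC. The part of those marker sums in the differences was not tested.

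**Figure D5:**
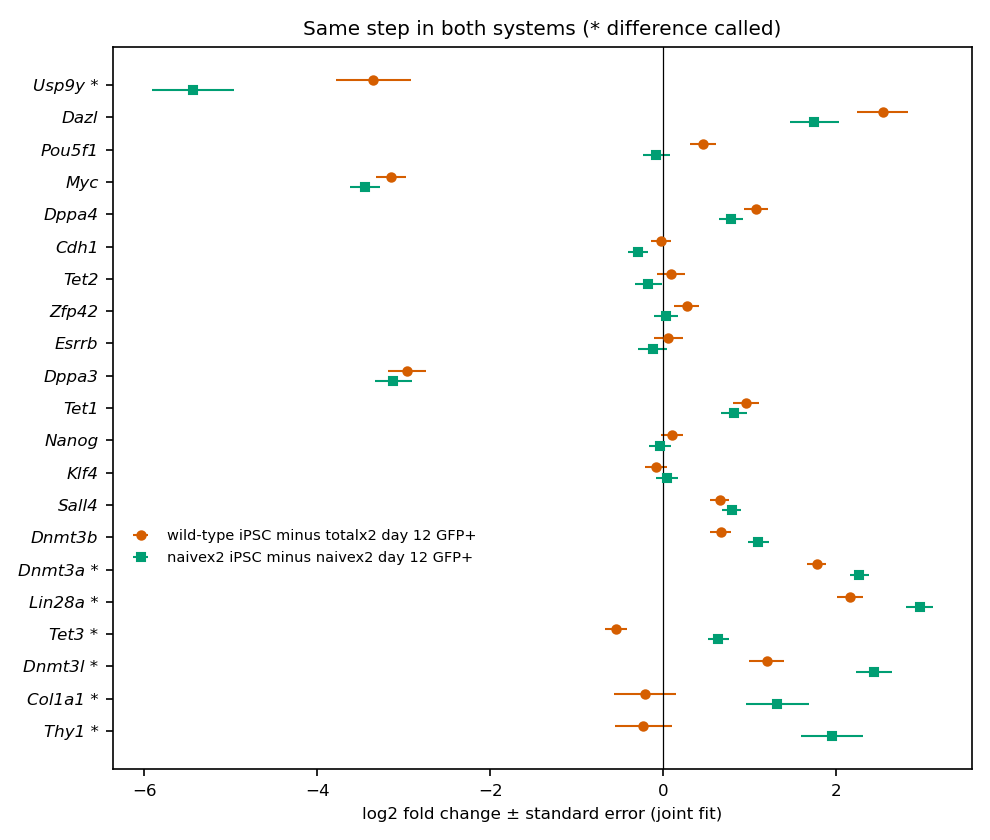
Log2 change ± standard error of the 21 fixed genes from day 12 GFP+ cells to iPSC, for wild-type iPSC against totalx2 (orange circles) and within naivex2 (green squares), in a joint fit of 42 libraries, ordered by the difference. Asterisks mark the 7 genes whose difference was called. Myc and Dppa3 are near -3 in both, and Tet3 lies on opposite sides of 0.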

How the data were processed

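RNA-seq libraries of 3 wild-type iPSC clonal lines and 3 day 12 totalx2 mCherry+/GFP+ lines were taken from the series' second table, grouped by source label. The table holds the authors' deposited counts, unnormalized, 1 row a gene name. Per the file headers they come from featureCounts 1.5.3, counting the reverse strand (setting 2) over whole gene bodies with introns. HISAT2 2.1.0, mm10 and DESeq2 1.18.1 are named in the submitters' processing notes. Each of the 48321 names is a row, and 0 columns lacked a sample. Libraries were stranded and made from polyA RNA, per the labels' protocols. Genes that overlap others on 1 strand, such as Sox2, are uncertain.

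Counts of all 21 libraries of the table were filtered with filterByExpr, scaled by TMM and fitted with edgeR 4.0.16 (quasi-likelihood, robust) in R 4.3.3, since all groups then share 1 estimate of spread. P values were adjusted by Benjamini-Hochberg over all genes tested and called at 0.05. The difference between systems used a joint fit of 42 libraries. CPM are counts per 1e6 counts of TMM-scaled totals, and ± is the SD of 3 libraries for CPM and the standard error for log2 changes. A 0 group is bounded at 3 counts per library, 0.2719 CPM (iPSC) and 0.3057 CPM (day 12). These floors cover counting error only. The tests were checked on simulated data. The wild-type replicates are clones and the day 12 replicates lines, and no 2 replicates of a group agreed within sampling noise.

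The comparison, the 35 gene lists and the 22 fixed genes were chosen with earlier results of these data known. Named genes are the 12 largest rises and falls among called genes without overlap between the groups and with a mean of 10 CPM or more in either group (predicted and clone names left out), from each list the called members of smallest p (4 at most, plus 1 moving against the list's majority), and the fixed genes. Some members of the lists are counted but not reported by name here. Other list members were chosen to show a list's roles after their values were seen. Alternatives were RLE factors, library totals alone, no mitochondrial genes, no filter, at least 1 CPM in 3 libraries, the 6 libraries alone, DESeq2 1.42.0, a replicate block, omission of each library in turn and a change of at least 1 log2 unit. GenomicRanges 1.54.1 gave gene overlaps and matplotlib 3.10.9 drew the figures.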

Additional observations from a re-analysis of the deposited data

Results flagged for a closer look

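In 7 of the 21 fixed genes the change from day 12 GFP+ cells to iPSC differed between the wild-type against totalx2 step and the naivex2 step, by the edgeR test of the difference itself in the joint fit. The differences on the log2 scale, totalx2 with wild-type iPSC minus naivex2, were -1.18 for Tet3, -2.18 for Thy1, -1.24 for Dnmt3l, -0.80 for Lin28a, -1.53 for Col1a1, -0.49 for Dnmt3a and 2.09 for Usp9y. Tet3, Thy1, Dnmt3l and Lin28a were called under all 19 alternatives. The call was lost under 3 of 19 for Dnmt3a, 4 for Usp9y and 7 for Col1a1. System, batch and mouse strain cannot be told apart here.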

How the results depend on the processing

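The count of called genes was 7761 in the 21-library fit and 5171 (2461 higher) when only the 6 libraries of the contrast were fitted. With a change of at least 1 log2 unit it was 3111 (1393 higher, 1718 lower). Leaving out each library in turn gave 6678 to 7806 genes, 3366 to 4063 higher and 3289 to 3981 lower. Library totals alone moved the all-gene median from -0.01 to -0.15 and the share of calls that were higher from 49% to 37.4% (2802 higher, 4684 lower). DESeq2 called 7793. With a replicate block 8106 genes were called. The numbers are clones in one group and lines in the other, and same-number deviations correlated at 0.112, -0.00635 and 0.104, so they pair nothing. Of 179 genes named by rule with a value, 162 kept their side of the threshold under each of up to 14 alternatives, 15 lost the call under at least 1 (Pou5f1 under 8, and mt-Cytb, mt-Nd4 and mt-Nd5 without clone 1) and 1, Zfp42, gained it in the same direction (without clone 1, adjusted p = 0.0485). Most of the 179 were picked by large changes or small p in this same fit, so this stability is not independent support. Tet2, not called with all libraries, turned from 0.09 to -0.32 without clone 1 and was then called lower (adjusted p = 0.0121), with a range of -0.32 to 0.30 over the omitted libraries. Single libraries also moved the fitted changes of genes near 0 counts in a group: Stra8 was at 7.32 and Dio3 at 4.56 without day 12 line 3, Clec2g at -10.16 and Usp9y at -4.07 without clone 3, Rapgef4 at -6.97 without clone 2, and Lgr5 at -5.11 and Sycp1 at 2.78 without clone 1.

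The difference between systems was called in 3507 genes and in 3931 with a replicate block. Library totals alone cut the more positive calls from 1602 to 1067. Leaving out each of the 12 libraries gave 2714 to 4009 genes, 1284 to 2035 more positive and 1417 to 1974 more negative. Genes under a few CPM in both groups are the least certain at 7018296 to 17963976 counts per library.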

Other observations

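The smallest p over all genes belonged to a processed pseudogene name, Rps24-ps3, singled out after its values were seen. On totals scaled over all 42 libraries it was at 60.2 to 71.6 CPM in the 15 totalx2 libraries and 57.4 to 142 CPM in the naivex2 libraries, but at 0.308 to 0.857 CPM in the 6 wild-type and knockout iPSC libraries. Of the 3111 genes called at 1 log2 unit or more, 70 had all 15 totalx2 libraries on 1 side of the other 27, 157 had the 6 wild-type and knockout iPSC libraries on 1 side of the other 36, and 143 had the 3 wild-type clones on 1 side of the other 39. For these the mouse set and the stage cannot be told apart in this contrast, whose libraries share 1 batch. The same patterns were not counted over all genes tested, so these counts are a description and not a result about the called genes. Predicted and clone names made up 743 of the 7761 called genes.

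Several genes with small p values lie outside every list and were also singled out after their values were seen. Podxl, which encodes podocalyxin, a surface sialomucin, fell from 263, 246 and 260 CPM on day 12 to 34.0, 24.8 and 25.4 CPM in the iPSC. Arntl2, a paralogue of the clock gene Bmal1, fell from 211, 171 and 162 CPM to 10.7, 7.90 and 8.10 CPM. Coil, which encodes the Cajal body scaffold coilin, rose from 71.2, 69.3 and 74.0 CPM to 332, 321 and 314 CPM. No library overlapped between the groups in these 3 genes. Over all genes tested that held for 25.8% higher and 28.6% lower in the iPSC.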
